A study of Homo sapiens with 4 samples.

Results

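The genes described are KAT6A and its MOZ complex partners KAT6B, BRPF1, BRD1, BRPF3, ING4, ING5 and MEAF6, chosen by gene symbol. All 8 were found among the 27800 symbols of the expression table, and all 8 were among the 12603 symbols whose mean over the libraries reached 1 TPM, the level required for testing. TPM (transcript abundance scaled to a fixed total per library) is the share of a library's transcripts assigned to a gene after division by transcript length, so levels can be compared between genes. The cells were MOLM-13, an established line of human acute myeloid leukaemia with a KMT2A-MLLT3 (MLL-AF9) fusion, and their RNA was sequenced in 2 groups of 2 libraries. The sgKAT6A libraries came from cells given lentiviral CRISPR-Cas9 with a guide against KAT6A, and the EV libraries from cells given the CRISPR-Cas9 vector labelled EV. The labels do not state the content of EV, the guide or how many were used, the editing rate, the day of harvest, or whether the cells were a pool or a clone. The study asked how the loss of KAT6A alters the transcription of these leukaemic cells.

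KAT6A, also called MOZ, is a histone acetyltransferase of the MYST family that acetylates lysines of histone H3. It works in a complex of 4 kinds of subunit, in which KAT6A or its paralog KAT6B (MORF) is the enzyme, a BRPF protein is the scaffold, an ING protein reads methylated histone H3, and MEAF6 is a small accessory subunit. The scaffolds BRPF1, BRD1 (also called BRPF2) and BRPF3 bind chromatin through PHD, bromo and PWWP domains. KAT6A maintains haematopoietic stem cells, and its gene is fused to other coactivator genes in some acute myeloid leukaemias.

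The MOLM-13 markers chosen for the check of the labelled cells (PTPRC, CD33, FLT3, SPI1, LYZ, MPO, HOXA9 and MEIS1) were all present, from 7.41 TPM upwards in every library. Of the markers of other cell types, MS4A1 was listed at 0 in all 4 libraries, the fibroblast genes did not exceed 0.652 TPM and the B cell genes 1.29 TPM, and the haemoglobin genes HBA1 and HBB reached 201 TPM. The T cell gene CD3D reached 11.5 TPM with CD3E at or below 0.185 TPM, and the epithelial gene KRT18 reached 7.12 TPM with EPCAM at or below 0.274 TPM. HBA1 reached 189 and 116 TPM in sgKAT6A replicates 1 and 2, against 67.3 and 201 TPM in the EV replicates, so it did not separate the groups. The libraries of a group differed in maturation markers, since ITGAM (CD11b) measured 12.3 and 52.1 TPM in sgKAT6A replicates 1 and 2, against 3.74 and 21.5 TPM in the EV replicates. RNA18SN5, an 18S ribosomal RNA symbol, was low in sgKAT6A replicate 2, at 340 TPM where the other libraries had 10401 to 13751 TPM. Read depth is unknown because TPM retains none, and the labels do not say whether replicates were separate cultures, so a p-value here reflects only how far these 4 libraries spread.

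The members were expressed at middling levels, and their order was partly stable. Over the 4 libraries ING4 averaged 19.6 TPM, ING5 18.0, KAT6A 14.0, BRPF1 13.3, BRD1 12.7, MEAF6 9.16, BRPF3 8.77 and KAT6B 5.01 TPM. By mean TPM, KAT6A exceeded 53.2% of the tested genes and KAT6B 26.6%. In this order BRD1 stood above MEAF6 and BRPF3 above KAT6B, and both steps held in 4 of 4 libraries with no overlap of the genes' ranges. ING5 exceeded KAT6A in 4 of 4 libraries as well, although their ranges overlapped. The other neighbours in the order (ING4 and ING5, KAT6A and BRPF1, BRPF1 and BRD1, MEAF6 and BRPF3) changed places between libraries. KAT6A was the fifth highest member in both sgKAT6A libraries, whereas it was the second in EV replicate 1 and the third in EV replicate 2.

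**Figure D1:**
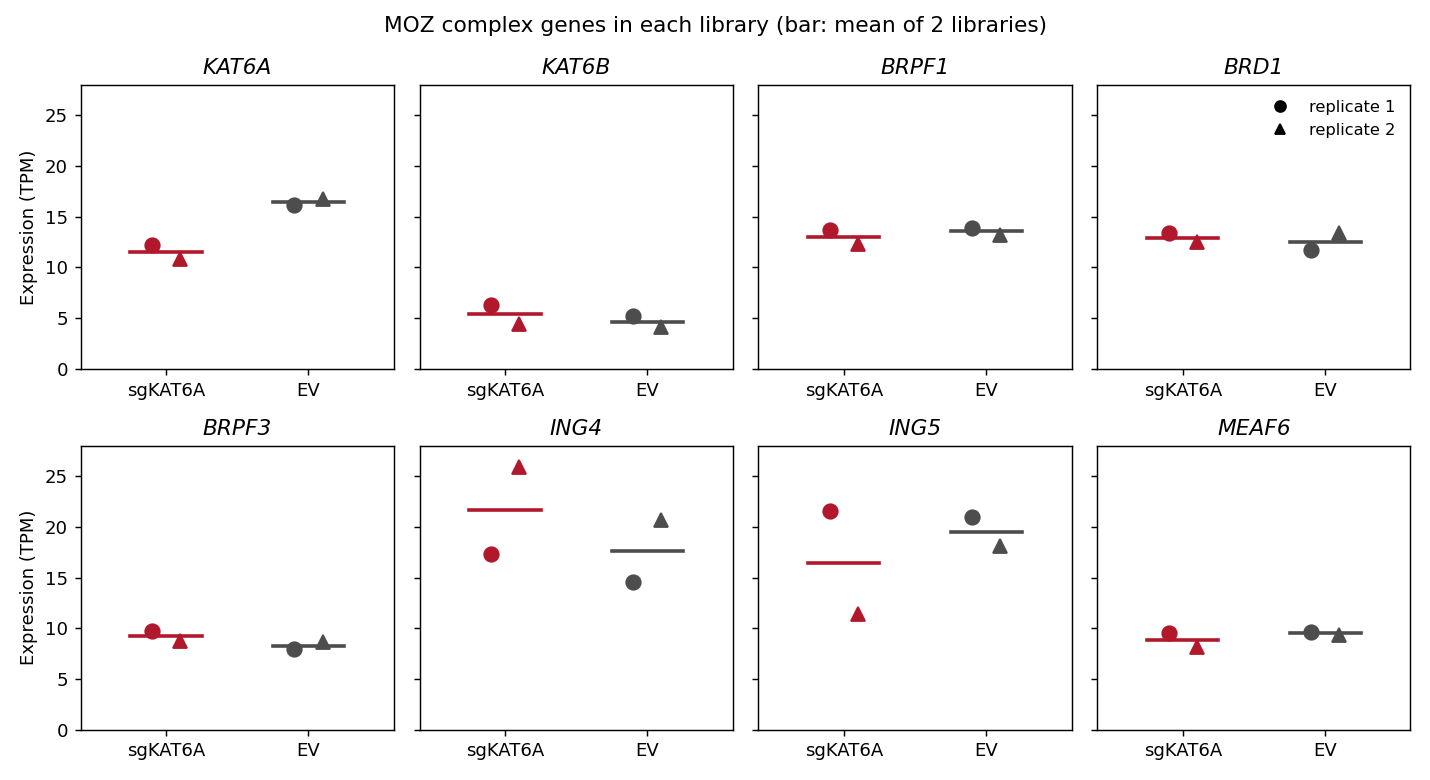
Expression in TPM (vertical axis, from 0) of each of the 8 members in the sgKAT6A and EV libraries; circles are replicate 1, triangles replicate 2 and bars the mean of 2 libraries. KAT6A is at 12.2 and 10.8 TPM in sgKAT6A cells and at 16.2 and 16.7 TPM in EV, while ING4 is higher in replicate 2 of each group and ING5 is lowest, at 11.4 TPM, in sgKAT6A replicate 2.

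The targeted gene KAT6A was at 12.2 and 10.8 TPM in sgKAT6A replicates 1 and 2, against 16.2 and 16.7 TPM in EV replicates 1 and 2. Both sgKAT6A libraries lay below both EV libraries. The means were 11.5 ± 0.979 TPM in sgKAT6A cells and 16.5 ± 0.387 TPM in EV cells (SD, n = 2 each), a ratio of 0.700. On the log2(TPM + 1) scale, which understates changes of low genes, KAT6A differed by -0.48 ± 0.13 (SE; 95% interval -0.84 to -0.12). The adjusted p was 0.784 by limma with Benjamini-Hochberg adjustment over all tested genes, so the difference did not pass the threshold of 0.05. The gap between the libraries of a group was smaller, at -0.16 in sgKAT6A and 0.05 in EV (replicate 2 minus replicate 1). KAT6A lies on chromosome 8 from 41929479 to 42052026 on the minus strand in GENCODE 29 on GRCh38. A transcript level does not measure the protein, and an edited transcript can persist. In RNA from a whole culture, a loss in some of the cells and a lower level in all of them cannot be told apart.

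Against the whole table, the size of the KAT6A difference was uncommon but not extreme. Of the 12603 genes tested, 0 (0%) passed the adjusted threshold by limma, 459 (3.64%) had an unadjusted p under 0.05, and KAT6A ranked 144 by unadjusted p (0.0204). A difference as low as that of KAT6A or lower was found in 687 genes (5.45%), and 419 of these also had no overlap of the groups. Both sgKAT6A libraries lay below both EV libraries in 23.2% of tested genes and above them in 14.4%, or 2930 and 1813 genes. This balance moved with scaling, to 2271 below and 2304 above with median-of-ratios scaling. With protein-coding genes only, rescaled, it was 1782 below and 2142 above, among the 10999 genes tested there. Every member kept its sign under each scaling. KAT6A was 1 of 1824 genes (14.5%) that were lower in sgKAT6A by more than the gap between the libraries of either group. It was the only member, of 8, whose difference exceeded both of these gaps, and no gene was higher by that measure among the members, against 9.20% of tested genes.

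**Figure D2:**
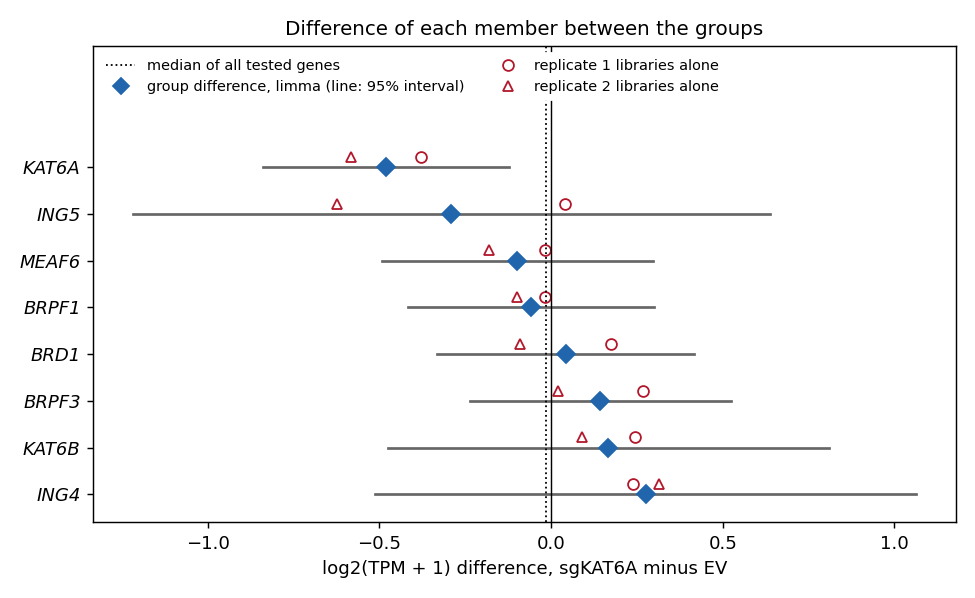
Difference in log2(TPM + 1), sgKAT6A minus EV, for each member (blue diamonds, with 95% intervals from limma), with the differences of the replicate 1 libraries alone (circles) and of the replicate 2 libraries alone (triangles). The interval of KAT6A, -0.84 to -0.12, lies below 0, and those of the other 7 members include 0.

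KAT6B, the paralog that can take the place of KAT6A in the complex, was at 6.33 and 4.42 TPM in sgKAT6A replicates 1 and 2, against 5.19 and 4.09 TPM in EV cells. The groups overlapped, and within each group the replicate 1 library was higher. The log2 difference was 0.17 ± 0.23 (SE; 95% interval -0.47 to 0.81, adjusted p = 0.85 by limma). Without sgKAT6A replicate 1 it was -0.05. KAT6B lies on chromosome 10 from 74824927 to 75032624 on the plus strand. Of the 24407 distinct 31-base words in the GENCODE 29 transcripts of KAT6A, 20 also occur in transcripts of KAT6B.

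The ratio of KAT6A to KAT6B within a library does not depend on how that library was scaled. It was 1.93 and 2.45 in sgKAT6A replicates 1 and 2, against 3.12 and 4.09 in EV cells. KAT6A thus made up 65.9% and 71.0% of the summed TPM of the paralogs in sgKAT6A, against 75.7% and 80.3% in EV cells, with no overlap. The mean log2 ratio of KAT6A + 1 to KAT6B + 1 differed by -0.65 between the groups. The exact two-sided permutation p was 0.333, the smallest that 2 against 2 libraries allow. Unlike the plain ratio, this log2 value depends on the amount added, and so on scaling. It was -0.71 with 0.1 added and -0.48 with 5 added. The summed TPM of both paralogs was 16.9 ± 2.33 in sgKAT6A cells and 21.1 ± 0.387 in EV cells (SD, n = 2 each).

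The scaffold genes had similar levels in both groups. BRPF1, the scaffold most closely tied to KAT6A and KAT6B, was at 13.7 and 12.3 TPM in sgKAT6A replicates 1 and 2, against 13.9 and 13.2 TPM in EV cells. BRD1, which also serves as a scaffold for the related enzyme KAT7, was at 13.4 and 12.5 TPM in sgKAT6A cells, against 11.7 and 13.4 TPM in EV cells. The groups overlapped for both genes. Their log2 differences were -0.06 (95% interval -0.42 to 0.30, adjusted p = 0.903 by limma) for BRPF1 and 0.04 (95% interval -0.33 to 0.42, adjusted p = 0.931 by limma) for BRD1.

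BRPF3, the third scaffold, which is known mainly as a partner of KAT7, was at 9.77 and 8.74 TPM in sgKAT6A replicates 1 and 2, against 7.94 and 8.61 TPM in EV cells. Both sgKAT6A libraries were above both EV libraries, an arrangement found in 14.4% of tested genes, but the replicate 2 libraries differed by only 0.02 in log2. The log2 difference of the groups was 0.14 (95% interval -0.24 to 0.52, adjusted p = 0.795 by limma). BRPF3 supplied 26.5% and 26.1% of the summed scaffold TPM in sgKAT6A cells, against 23.7% and 24.5% in EV cells. The summed scaffold TPM was 36.9 and 33.5 in sgKAT6A cells, against 33.6 and 35.2 in EV cells, and the groups overlapped. Per unit of KAT6A plus KAT6B, this sum was 1.99 and 2.20 in sgKAT6A cells, against 1.57 and 1.69 in EV cells. KAT6A itself is part of the denominator of that ratio.

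**Figure D3:**
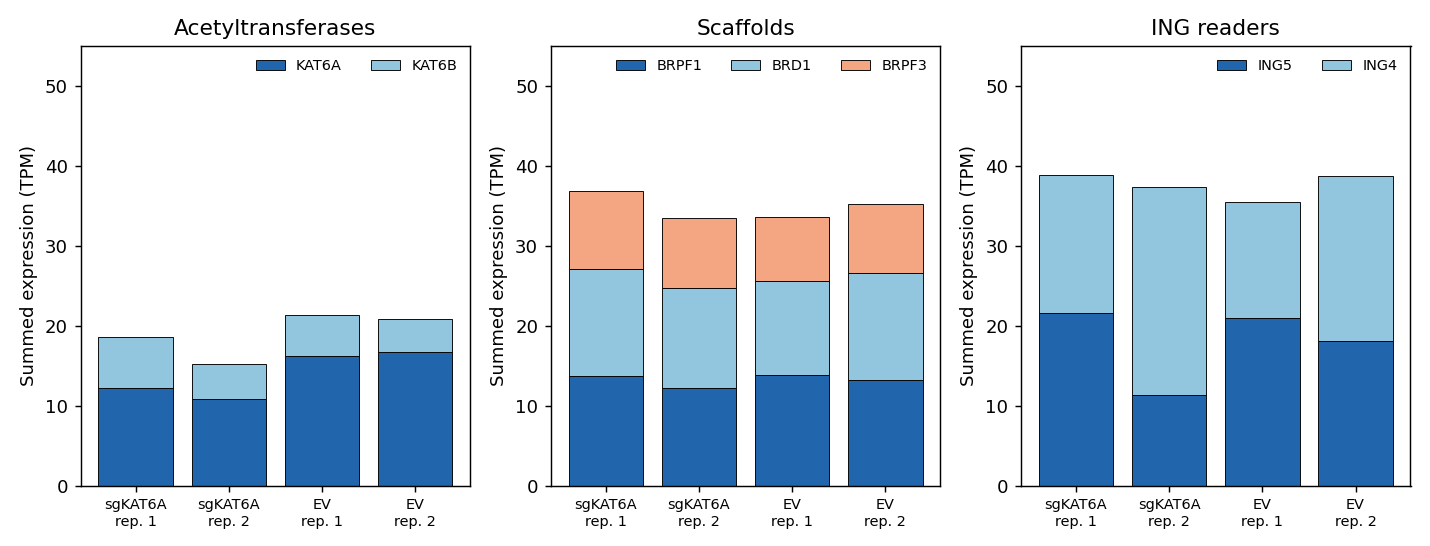
Stacked TPM (vertical axes, from 0) of the acetyltransferases, the scaffolds and the ING readers in each library, sgKAT6A to the left of EV. The acetyltransferase stacks are 18.6 and 15.3 TPM in sgKAT6A and 21.4 and 20.8 TPM in EV, and the ING stacks have similar heights of 35.5 to 38.9 TPM while the ING5 part shrinks to 11.4 TPM in sgKAT6A replicate 2.

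ING4 and ING5, paralogous readers of methylated histone H3, had the widest ranges among the members, 14.5 to 25.9 TPM and 11.4 to 21.6 TPM over the 4 libraries. ING5 is the ING subunit of the MOZ complex, and both ING4 and ING5 occur in the KAT7 complexes. The promoters of this pair are shown because the transcripts of ING4 and ING5 differed in opposite directions between the libraries of each group. They are the 250 bases upstream of the RefSeq start on GRCh38.p14, in the direction of transcription, and capitals mark GGGCGGAAG (in the ING4 promoter) or CCAAT read on the other strand, ATTGG (in the ING5 promoter). ING4 is at chr12:6663120-6663369 on the minus strand and ING5 at chr2:241686770-241687019 on the plus strand.
ING4: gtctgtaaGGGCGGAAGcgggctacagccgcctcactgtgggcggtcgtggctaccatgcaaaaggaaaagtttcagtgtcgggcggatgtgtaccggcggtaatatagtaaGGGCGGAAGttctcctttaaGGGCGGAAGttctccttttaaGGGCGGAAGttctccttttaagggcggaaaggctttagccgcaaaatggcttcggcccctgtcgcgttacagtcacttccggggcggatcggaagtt
ING5: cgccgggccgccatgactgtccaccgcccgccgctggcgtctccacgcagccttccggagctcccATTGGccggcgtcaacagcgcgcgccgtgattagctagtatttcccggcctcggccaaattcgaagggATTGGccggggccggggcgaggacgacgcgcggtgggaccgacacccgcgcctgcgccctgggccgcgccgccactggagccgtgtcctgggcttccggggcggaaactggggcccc

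The ING4 window held 4 copies of GGGCGGAAG, a word noticed in this sequence, and the ING5 window held none. On either strand, that word occurs in 1.39% of the 14697 protein-coding promoters of the same length. The ING5 window held 2 copies of CCAAT and the ING4 window none, against a share of 34.5% of promoters with at least 1 copy on either strand. It also had more CpG dinucleotides, 35 against 20 in ING4, where the median promoter had 18. CACGTG, the E-box bound by MYC and related factors, was in neither window and is found in 7.90% of promoters. These matches describe the sequence and are not evidence of binding.

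ING4 was at 17.3 and 25.9 TPM in sgKAT6A replicates 1 and 2, against 14.5 and 20.7 TPM in EV cells. Its log2 difference was 0.28 (95% interval -0.51 to 1.06, adjusted p = 0.802 by limma), and without sgKAT6A replicate 2 it was -0.0014. Between libraries of the same replicate number, ING4 was higher in sgKAT6A by 0.24 (replicate 1) and 0.31 (replicate 2). With the replicate number as a block, the 95% interval was -0.0059 to 0.56 (adjusted p = 0.267 by limma). The labels do not say that these numbers pair the libraries. The replicate 2 library was higher in each group, by 0.56 in sgKAT6A and by 0.48 in EV on the log2 scale. The 4 libraries stood in the same order for ING4 as for ITGAM, with EV replicate 1 lowest and sgKAT6A replicate 2 highest. Of the MOLM-13 markers, SPI1 and PTPRC had this order as well, while CD33, FLT3, LYZ, MPO, HOXA9 and MEIS1 did not. The share of all tested genes with this order was not counted. The part of cell maturation in the ING4 level was not tested.

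ING5 was at 21.6 and 11.4 TPM in sgKAT6A replicates 1 and 2, against 20.9 and 18.1 TPM in EV cells. The group difference rested on the low level in sgKAT6A replicate 2. It was -0.29 in log2 (95% interval -1.22 to 0.64, adjusted p = 0.818 by limma) and 0.14 without that library. ING5 made up 55.4% and 30.5% of the summed ING4 and ING5 TPM in sgKAT6A cells, against 59.0% and 46.7% in EV cells. The sum itself was 38.9 and 37.3 TPM in sgKAT6A cells, against 35.5 and 38.8 TPM in EV cells. ING5 begins 93 bases from DTYMK, which encodes thymidylate kinase and lies on the opposite strand. DTYMK was at 77.9 and 63.2 TPM in sgKAT6A cells, against 89.3 and 79.3 TPM in EV cells, and like ING5 it was lower in the replicate 2 library of each group.

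MEAF6, the accessory subunit shared with the KAT7 and NuA4 complexes, was at 9.54 and 8.12 TPM in sgKAT6A replicates 1 and 2, against 9.65 and 9.33 TPM in EV cells. The groups overlapped. The log2 difference was -0.10 (95% interval -0.49 to 0.30, adjusted p = 0.854 by limma). Among the other members, BRPF1 had the profile closest to that of MEAF6, with a root-mean-square distance of 0.030 between the centred log2 values. Both genes varied little over the 4 libraries, with a highest over lowest TPM of 1.19 for MEAF6 and 1.13 for BRPF1. Flat profiles lie close together by this measure. The microRNA gene MIR5581, which lies inside MEAF6 on the same strand, was at 28.5 and 3.20 TPM in sgKAT6A cells, against 5.35 and 0 TPM in EV cells. Like MEAF6, it was lower in the replicate 2 library of each group. MIR5581 spans only 60 bases, all within MEAF6, so its TPM rests on division by a very short length. How far RNA of MEAF6 contributes to its values was not tested.

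The partners showed no shared direction beside KAT6A. By limma, none of the 8 members passed the adjusted threshold, 1 was lower without overlap (KAT6A, 12.5% of the members against 23.2% of tested genes) and 1 was higher without overlap (BRPF3). The median log2 difference was -0.0084 over the 8 members and -0.016 over all tested genes. Among the 7 partners the differences ran from -0.29 for ING5 to 0.28 for ING4, with adjusted p from 0.795 to 0.931 by limma. In all 7 partners the gap between the sgKAT6A libraries exceeded the difference between the groups, and in 4 of them the gap between the EV libraries did. For BRPF3 the sgKAT6A gap and the group difference were nearly equal in size, at -0.1449 (replicate 2 minus replicate 1) and 0.1440. The summed TPM of the 8 members was 104 and 94.2 in sgKAT6A cells, against 100.1 and 104 in EV cells, and KAT6A took 11.8% and 11.5% of it in sgKAT6A, against 16.2% and 16.1% in EV cells.

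Genes beside the members on the chromosome were examined because reads of overlapping genes cannot be told apart without strand. Another reason was that the guide was directed at the KAT6A locus, although the editing rate is not stated. No protein-coding gene in the table overlapped a member in GENCODE 29. The nearest protein-coding neighbours of KAT6A in the table are ANK1, at or below 0.484 TPM in every library, and AP3M2, a subunit gene of an adaptor complex for vesicle transport. AP3M2, which begins 100919 bases from KAT6A, was at 8.55 and 7.45 TPM in sgKAT6A cells, against 10.30 and 10.27 TPM in EV cells. Both sgKAT6A libraries were below both EV libraries, an arrangement found in 23.2% of tested genes. The log2 difference of AP3M2 was -0.33, with an adjusted p of 0.784 by limma. OGG1, a DNA repair glycosylase gene 1925 bases from BRPF1, was at 11.1 and 10.1 TPM in sgKAT6A cells, against 7.15 and 7.30 TPM in EV cells, with a log2 difference of 0.49 and an adjusted p of 0.784 by limma.

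The genes with the profile most like that of KAT6A included CCNB1, BOLA2-SMG1P6, MYBL2 and MCM10. Likeness was the root-mean-square distance between centred log2(TPM + 1) values over 4 libraries, computed for the 8510 protein-coding genes whose mean reached 5 TPM. It was 0.014 for CCNB1, which encodes the mitotic cyclin B1, and 0.024 for MCM10, which encodes a DNA replication factor. CCNB1 was at 54.2 and 48.4 TPM in sgKAT6A cells, against 69.9 and 71.3 TPM in EV cells. A distance of at most 0.05 was reached by 28 genes and of at most 0.1 by 290 genes, so the profile of KAT6A was shared by many genes. The nearest member to KAT6A was MEAF6, at a distance of 0.19.

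The enzymes and scaffolds of related complexes also had small differences. Of the 6 MYST paralogs and JADE scaffolds, JADE1 was lower and KAT5 higher in sgKAT6A without overlap, against 23.2% and 14.4% of all tested genes. KAT7, also called HBO1, which shares the BRPF, ING and MEAF6 subunits with KAT6A, was at 17.7 and 16.5 TPM in sgKAT6A cells, against 17.8 and 17.5 TPM in EV cells (log2 difference -0.04, 95% interval -0.37 to 0.29). JADE1, the alternative scaffold of KAT7, was at 8.78 and 8.44 TPM in sgKAT6A cells, against 10.0 and 10.5 TPM in EV cells. KAT5, the enzyme of the NuA4 complex, was at 30.2 and 31.4 TPM in sgKAT6A cells, against 25.2 and 28.4 TPM in EV cells, and KAT8 at 31.3 and 38.4 TPM in sgKAT6A cells, against 29.8 and 31.7 TPM in EV cells. Of the other ING readers, ING1 was higher without overlap, at 13.9 and 20.2 TPM in sgKAT6A cells against 12.4 and 13.3 TPM in EV cells. ING2 was lower without overlap, at 4.18 and 3.93 TPM in sgKAT6A cells against 4.78 and 4.88 TPM in EV cells, and ING3 overlapped. None of these genes passed the threshold (smallest adjusted p = 0.784 by limma).

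Of the 15 NuA4 subunits, 8 were lower and 1 was higher (EP400) in sgKAT6A without overlap, with a median log2 difference of -0.13. Over all tested genes, 23.2% were lower and 14.4% higher without overlap, and the median was -0.016. RUVBL1, an ATPase shared with chromatin remodelling complexes, was at 53.6 and 30.8 TPM in sgKAT6A cells, against 73.0 and 62.2 TPM in EV cells. ACTL6A, an actin-related subunit also found in remodelling complexes, was at 47.4 and 38.9 TPM in sgKAT6A cells, against 57.2 and 61.1 TPM in EV cells. YEATS4, a reader of acetylated histone tails, was at 22.8 and 19.9 TPM in sgKAT6A cells, against 24.7 and 26.7 TPM in EV cells. None of the 15 passed (adjusted p = 0.784 by limma for these 3). In the 9 genes of the KAT8 complexes the median was 0.0051, and 1 gene, MCRS1, was lower without overlap at 44.2 and 41.0 TPM in sgKAT6A cells against 48.8 and 47.8 TPM in EV cells.

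**Figure D4:**
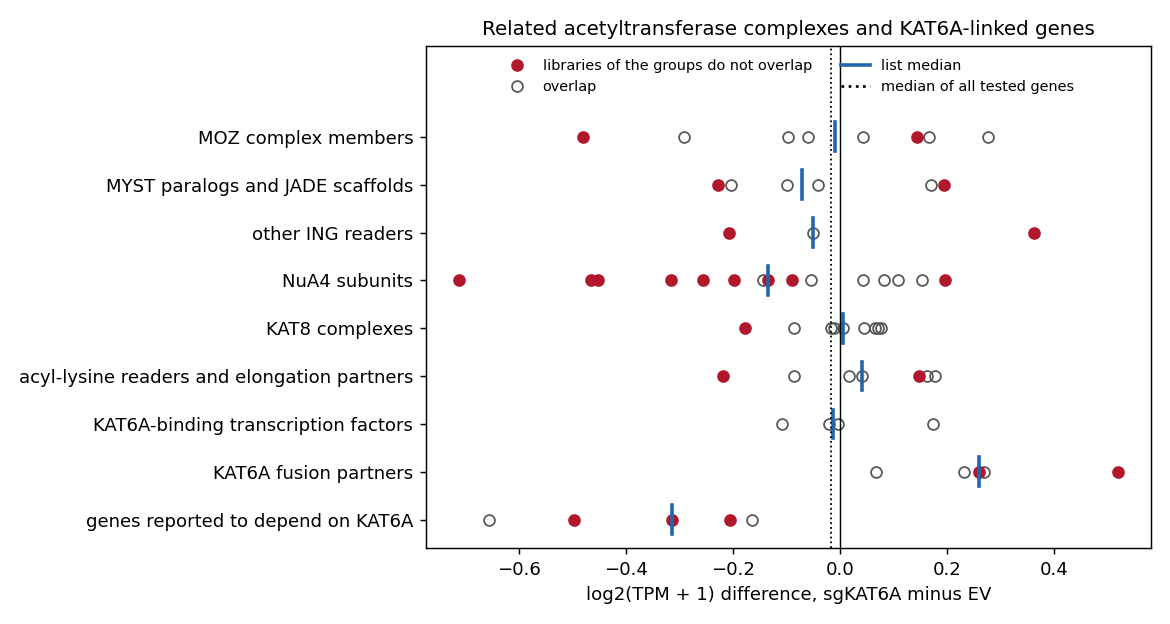
Difference in log2(TPM + 1), sgKAT6A minus EV, of each gene of the MOZ complex and of 8 related lists; filled points are genes whose libraries do not overlap between the groups, blue bars are list medians and the dotted line is the median of all tested genes. The NuA4 subunits have a median of -0.13 with 8 of 15 genes lower without overlap, against 23.2% of all tested genes, and no gene shown passed the adjusted threshold.

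Readers of acylated lysine and the elongation factors that work with them had a median log2 difference of 0.04 over 7 genes. MLLT1 (ENL), which binds acetylated histone H3, was at 52.6 and 40.1 TPM in sgKAT6A cells, against 51.5 and 46.2 TPM in EV cells. CCNT1, the cyclin of the elongation kinase, was lower without overlap at 9.65 and 7.86 TPM in sgKAT6A cells against 10.4 and 10.2 TPM in EV cells, and ELL was higher without overlap at 18.8 and 21.8 TPM in sgKAT6A cells against 17.8 and 18.7 TPM in EV cells. The transcription factor genes RUNX1, SPI1 and PML, whose proteins have been reported to bind KAT6A, overlapped between the groups. Of the genes fused to KAT6A in leukaemia, NCOA3 and CREBBP were higher without overlap, which 14.4% of all tested genes were. NCOA3 was at 10.1 and 13.9 TPM in sgKAT6A cells, against 6.68 and 9.47 TPM in EV cells, and CREBBP at 17.7 and 13.9 TPM in sgKAT6A cells, against 12.8 and 13.1 TPM in EV cells. The median over the 5 fusion partners was 0.26, and none passed the threshold (smallest adjusted p = 0.784 by limma).

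Of the 5 tested genes reported to depend on KAT6A, BMI1, MYB and HOXA9 were lower in sgKAT6A without overlap, MYC and MEIS1 overlapped, and the median log2 difference was -0.31. These genes were listed with earlier results of the same libraries known, so their direction is no independent evidence. BMI1, a Polycomb gene, was at 57.5 and 54.7 TPM in sgKAT6A cells, against 79.0 and 80.2 TPM in EV cells. HOXA9, a homeobox gene driven by KMT2A fusions, was at 42.8 and 49.5 TPM in sgKAT6A cells, against 54.7 and 51.7 TPM in EV cells. MYB, a progenitor transcription factor gene, was at 122.5 and 94.0 TPM in sgKAT6A cells, against 141 and 126.5 TPM in EV cells. The smallest adjusted p among them was 0.784 by limma. CDKN2A was at or below 0.0588 TPM in all 4 libraries and was not tested. Over all 54 related genes tested, 27.8% were lower and 11.1% higher without overlap, against 23.2% and 14.4% of all tested genes.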

How the data were processed

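Gene expression was available for 2 sgKAT6A and 2 EV libraries of MOLM-13 cells, grouped by sample title. The authors deposited a table of TPM for each gene symbol. Salmon and the build hg38 are named in the submitters' processing notes, without a version, an annotation or the step from transcripts to genes. Each library sums to 1000000, so an abundant RNA moves all other values. Depth is unknown, so no count model or counting interval was used.

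Values were taken as log2(TPM + 1) without further scaling. The 12603 symbols with a mean of at least 1 TPM were fitted with limma 3.58.1 in R 4.3.3 (moderated variances with a mean-variance trend, no block, two-sided, Benjamini-Hochberg adjustment over all of them, threshold 0.05). The fit was run on simulated data with independent noise of equal spread in all genes. That setting is simpler than these libraries and does not measure how the fit performs on them. Groups do not overlap where both sgKAT6A libraries lie on the same side of both EV libraries. Protein-coding class came from RefSeq symbols, which matched 12364 of the tested symbols. The members and lists were chosen with earlier results of these data known. Named genes were all members, the 5 genes closest to KAT6A in profile, KAT5 and KAT7, and up to 3 genes per related list by smallest unadjusted p; genes without overlap in short lists, KAT8, MLLT1 and neighbours were added after their values were seen. Coordinates are from GENCODE 29 (GRCh38) and promoters from RefSeq (GRCh38.p14), which matched 7 of the members used here. Some genes that the naming rule or the lists take are not reported here. Alternatives were another pseudocount, filter, scaling, variance model or gene class, leaving out each library, and the replicate number as a block. Leave-one-out and scaling counts of members without overlap were added after seeing the data.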

Additional observations from a re-analysis of the deposited data

How the results depend on the processing

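The KAT6A difference kept its sign and did not pass the adjusted threshold under any alternative run, from -0.56 without sgKAT6A replicate 1 to -0.38 with a pseudocount of 5. With a library left out it ran from -0.56 to -0.40, a lone library being assumed to vary like the other group, and the log2 ratio of KAT6A to KAT6B ran from -0.81 to -0.48. The sign of the other differences changed with a library left out, over ranges of -0.051 to 0.38 for KAT6B, -0.13 to 0.016 for BRPF1, -0.046 to 0.13 for BRD1, -0.0014 to 0.55 for ING4, -0.72 to 0.14 for ING5 and -0.20 to 0.0066 for MEAF6, while that of BRPF3 did not (0.07 to 0.22). Members without overlap numbered 1 to 4 lower and 2 to 3 higher with a library left out, since fewer libraries overlap less often, and over all genes 4166 to 5554 lower and 2458 to 4944 higher.

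With protein-coding genes only, rescaled, 1782 genes were lower and 2142 higher without overlap among 10999 tested. As deposited, 2930 were lower and 1813 higher among 12603 tested. KAT6A and BRPF3 did not overlap between the groups in either. Those higher numbered 3402 with no filter and 1112 with a minimum mean of 5 TPM, where more or fewer genes were tested. Genes at an unadjusted p under 0.05 by limma numbered 933 with no filter and 179 to 1212 with a library left out, against 459. The labels do not say that equal replicate numbers pair the libraries. With the number as a replicate block, 15 genes passed and 2417 had an unadjusted p under 0.05 by limma. KAT6A did not pass with the block (adjusted p = 0.183 by limma). Same-numbered libraries deviated together (r = 0.455 across genes, which are not independent replicates). With 2 libraries per group and unknown depth, partner differences as large as the ends of the intervals given are not excluded.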
